A study of Saccharomyces cerevisiae with 24 samples.

Results

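Aerobic *S. cerevisiae* cells were exposed to cobalt chloride, and their transcripts were compared with those of untreated aerobic cells. Of the 24 arrays of the series, 18 hold strain L51, and 6 of those make up this experiment. The cobalt group has 3 arrays of cells given 400 µM of the salt over 6 h in air, and the control group has 3 arrays of cells in air alone. They were chosen by their titles, and each cobalt array was set against the aerobic array with the same replicate number. All 5449 *S. cerevisiae* genes that a probe set of the L51 arrays names were analysed. L51 is a MATa strain that carries hap1::LEU2 and trp1::HisG together with ade1-100, his4-519, leu2-3, 112 and ura3-52, and the labels give it for every array of both groups. The study's text also mentions that a replicate was made in another yeast strain, without saying which, so the arrays it concerns are not known here. In both groups an ARS-CEN plasmid with the whole *HAP1* gene restored the heme-responsive activator Hap1, according to the titles and the study's methods, so Hap1 came from a plasmid and not from its chromosomal locus. The labels give the aerobic cells a second plasmid, a UAS1/*CYC1-lacZ* reporter of Hap1 activity, which they do not mention for the cobalt cells. Cells grew in synthetic complete medium, and according to the methods the 3 arrays of a condition came from independently grown batches. Where an oxygen-free group is named below, it is the same *HAP1* strain kept without oxygen for 6 h (3 arrays) or 1.5 h (3 arrays). Values are log2 of the array intensity, a gene is called above background on an array where it exceeds the 95th percentile of probe sets for another yeast, and differences are in log2 units, cobalt minus air unless another order is given.

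Cobalt salts have long been used to mimic oxygen shortage, above all in animal cells. In yeast, heme is the main messenger of oxygen. It activates Hap1, which switches on genes of respiration and the repressor gene *ROX1*, and Rox1 in turn keeps hypoxic genes silent. A separate pathway through the membrane-bound factor Mga2 controls the fatty acid desaturase gene *OLE1*. Cobalt is also a toxic metal, which yeast stores in the vacuole through the transporter Cot1.

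The labels of the cobalt arrays disagree on the plasmid, since their descriptions name the empty vector and their titles and source names the *HAP1* cells. The log2 intensity of *HAP1* (YLR256W) was 10.46, 10.23 and 10.98 in the 3 cobalt arrays and 9.77, 10.32 and 9.79 in the 3 aerobic arrays. In the 6 arrays of *Δhap1* cells, which carry the empty vector, it was between 5.76 and 6.57. The *HAP1* transcript was thus present in each cobalt array, and the groups overlapped (log2 difference 0.60, SE 0.39, adjusted p = 0.53). The a-specific genes *MFA1*, *MFA2*, *STE2*, *STE6*, *BAR1* and *AGA2* were above background on all 6 arrays. Of the 4 α-specific genes, *MF(ALPHA)1* and *MF(ALPHA)2* were not above background on any of them, but *SAG1* was above it on all 6 (10.27 to 11.66) and *STE3* on 2 arrays of each group. *TRP1* was not measured by a named probe set.

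Several arrays stood apart before any gene was considered. Cobalt replicates 1 and 2 were closer to each other than any other of the 153 pairs of L51 arrays (SD of the log2 difference over genes 0.22), although they were hybridized on different days, and the next closest pair of 1 condition had an SD of 0.37. Nothing in the labels says that they are 1 sample, so they were kept as 2, and the counts were repeated with both averaged and no replicate block. Aerobic replicate 2 had 67.55% of genes above background, against 78.77 to 94.29% on the other 5 arrays. Pair 2, which holds that array, had 1843 genes at least 2-fold higher with cobalt and 628 lower. Pair 1 had 54 higher and 115 lower, and pair 3 had 18 higher and 145 lower. The median difference over all genes was -0.02, 0.35 and -0.22 in pairs 1, 2 and 3. Cobalt replicate 3 stood apart on genes under heme and oxygen control, as described below. An array outside these groups, the one labelled 1.5 h without oxygen and replicate 3, had the hypoxic genes *ANB1* and *DAN1* at 9.02 and 8.01, against 13.41 to 14.15 in the other 1.5 h arrays, and it enters the estimate of the spread. Over all genes this array was closer to cobalt replicates 2 and 1 (SD of the difference 0.312 and 0.373) than cobalt replicate 3 was (0.512 and 0.515). Cobalt replicate 3 itself was closest to aerobic replicate 3 (0.371). The chaperone gene *SIS1* was at 11.18 in cobalt replicate 3, 11.19 and 11.24 in cobalt replicates 1 and 2, and 12.67 in the 1.5 h replicate 3 array. *CYC1* was at 9.41 in cobalt replicate 3, against 12.58 and 13.15 in 1.5 h replicates 1 and 2. The labels of these replicate 3 arrays are in doubt, and a mix-up was not tested. The cobalt means below hold replicate 3 as it is labelled.

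Few genes passed the test between cobalt and air. In the limma fit of all 18 L51 arrays with the replicate number as a block, 1 gene rose (0.0184% of the 5449 tested) and 7 fell (0.128%) at a Benjamini-Hochberg adjusted p below 0.05, 8 in all (0.147%). At an unadjusted p below 0.05 there were 242 higher genes (4.44%) and 312 lower genes (5.73%). In all 3 pairs 393 genes were higher (7.21%) and 867 lower (15.9%). The pairs agreed little over all genes, with a correlation of their differences of 0.33 between pairs 1 and 3. Pair 2 correlated with pair 1 at 0.01 and with pair 3 at -0.04. The arrays of the 2 groups did not overlap for 123 higher (2.26%) and 300 lower genes (5.51%). A difference of at least 1 log2 unit in all 3 pairs held for 7 higher (0.128%) and 8 lower genes (0.147%). The gene that rose was *IZH4*. The genes that fell were the J-domain chaperone genes *SIS1*, *APJ1*, *MDJ1* and *JID1*, the allantoin-pathway gene *DAL7*, and the open reading frames YGR035C and YKR075C. The 8 adjusted p-values were all between 0.036 and 0.039, and the calls depended on single arrays. Without cobalt replicate 3 the test called 5 genes, all lower, of which 3 were among the 8 (*APJ1*, YKR075C and YGR035C). Without aerobic replicate 2 it called *IZH4* alone, without aerobic replicate 1 it called 0 and without aerobic replicate 3 it called 3, and without cobalt replicate 1 or cobalt replicate 2 it called 0. It also called 0 without the replicate block, with 167 genes at an unadjusted p below 0.05, and in the same setting with cobalt replicates 1 and 2 averaged. All 8 genes kept their direction in each of 23 refits under other settings. Their cobalt and aerobic arrays did not overlap, so the direction could hardly change and this adds little support.

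**Figure D1:**
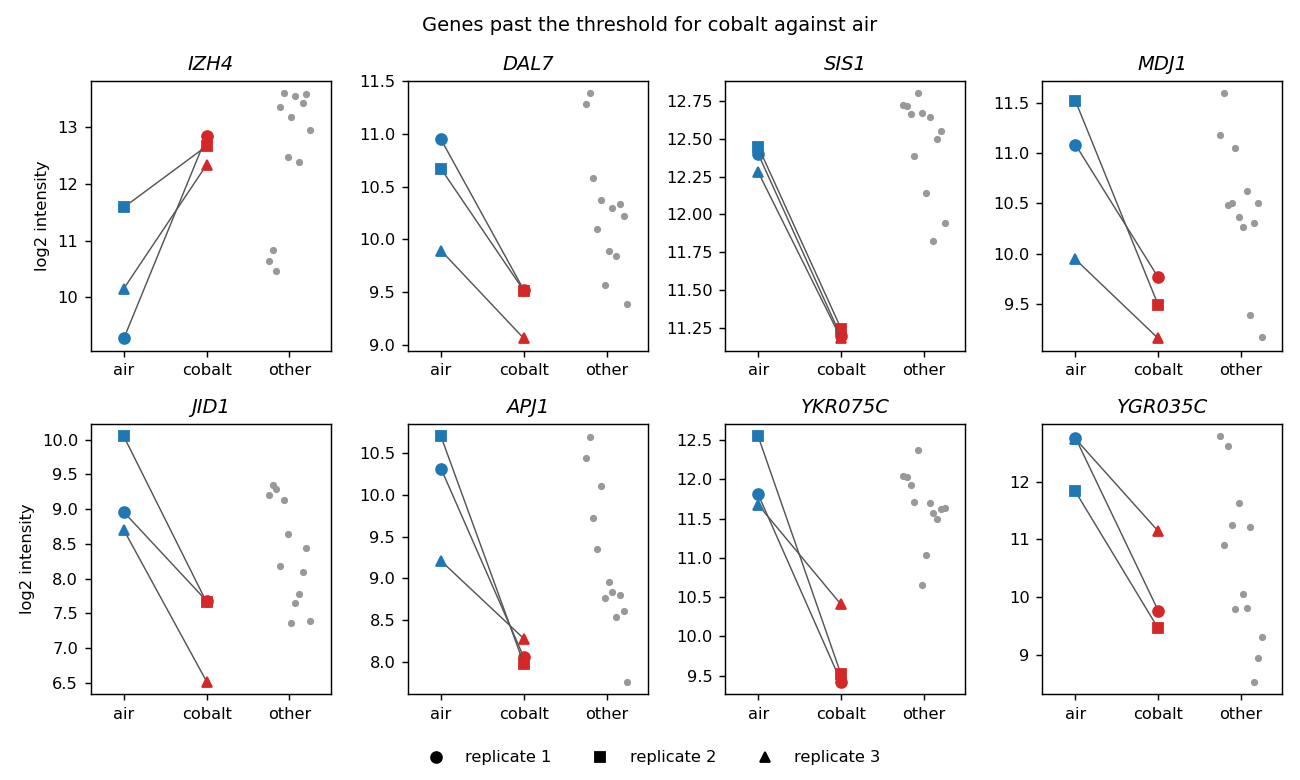
Log2 intensity of the 8 genes past the threshold in the 3 aerobic (blue) and 3 cobalt (red) arrays, joined by replicate number, with the 12 other L51 arrays in grey (from left to right Δhap1 in air, HAP1 at 1.5 h and at 6 h without oxygen, and Δhap1 at 6 h). Cobalt and aerobic arrays do not overlap for any of the 8 genes, and for SIS1 the 3 cobalt arrays (11.18 to 11.24) lie below all 15 others.

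*IZH4* (YOL101C) encodes a membrane protein of the progestin and adipoQ receptor family with a part in zinc homeostasis. Its log2 intensity was 9.28, 11.59 and 10.15 in air and 12.84, 12.67 and 12.34 with cobalt. The cobalt arrays lay close together, whereas the aerobic arrays spanned over 2 log2 units, with aerobic replicate 2 the highest. The difference was 2.28 (SE 0.37, adjusted p = 0.036), a 4.85-fold rise, and it was 3.57, 1.08 and 2.18 in the 3 pairs. As for every gene here, the SE draws on the spread over all 6 conditions and does not measure the spread of these 3 pairs. In cells kept 6 h without oxygen *IZH4* was at 13.18, 13.55 and 12.39, and in aerobic *Δhap1* cells at 10.46 to 10.84. The difference between cobalt and 6 h without oxygen was -0.43 (SE 0.37, adjusted p = 0.49).

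The other genes of the *IZH* family had higher means with cobalt as well, but none passed the test. *IZH2* was at 12.26, 10.33 and 12.62 in air and 13.05, 13.10 and 13.34 with cobalt (difference 1.43, SE 0.39, adjusted p = 0.40). *IZH1* differed by 0.70 and *IZH3* by 0.46, and only *IZH3* overlapped between the groups. Aerobic replicate 2 was the lowest aerobic array for *IZH1*, *IZH2* and *IZH3* and the highest for *IZH4*.

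Of 21 measured genes of zinc and cobalt transport, *IZH4* alone passed, and the median difference of the list was 0.12, against 0.05 over all genes. *COT1*, the vacuolar cobalt transporter, was at 11.38, 12.25 and 11.02 in air and 11.52, 11.50 and 10.75 with cobalt (difference -0.30, SE 0.27, adjusted p = 0.62). Its vacuolar zinc relative *ZRC1* was between 13.38 and 13.62 on all 6 arrays. The plasma membrane zinc transporter genes *ZRT1* and *ZRT2* differed by -0.05 and 0.37. *FET4*, a low-affinity transporter of iron and other metals, was higher by 0.25, 1.28 and 1.45 in the 3 pairs, with overlap between the groups (difference 0.99, SE 0.60, adjusted p = 0.51). *ZPS1*, a gene of the zinc regulon, was at 11.21, 12.67 and 12.73 in air and 10.77, 10.77 and 11.99 with cobalt (difference -1.03, adjusted p = 0.49), and it lay 2.92 below its level at 6 h without oxygen (adjusted p = 0.031).

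J-domain proteins are partners that bring unfolded clients to Hsp70 chaperones and start their ATPase cycle, and each compartment has its own. Of the 21 J-domain genes measured, 4 passed as lower and 0 as higher, against 0.128% and 0.0184% of all genes. This list was drawn up after the values had been seen, so its count is a description. *SIS1* (YNL007C), the essential J-domain partner of the cytosolic and nuclear Hsp70s, was at 12.40, 12.45 and 12.28 in air and 11.19, 11.24 and 11.18 with cobalt. The SD was 0.09 in air and 0.03 with cobalt, and no other L51 array was below 11.83. The pairs differed by -1.21, -1.2 and -1.10, and the fall was 2.25-fold on average (log2 difference -1.17, SE 0.20, adjusted p = 0.039).

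*APJ1* (YNL077W), another J-domain gene of the cytosol and nucleus, was at 10.31, 10.69 and 9.21 in air and 8.06, 7.98 and 8.28 with cobalt. Its difference was -1.96 (SE 0.30, adjusted p = 0.036), and 1 of the 3 cobalt arrays was above background. *MDJ1* (YFL016C), the J-domain partner of the Hsp70 in the mitochondrial matrix, was at 11.09, 11.52 and 9.95 in air and 9.77, 9.49 and 9.16 with cobalt. It fell by 1.38 (SE 0.24, adjusted p = 0.039), with aerobic replicate 3 closest to the cobalt arrays. *JID1* (YPR061C), a probable mitochondrial J-domain gene, was at 8.96, 10.05 and 8.70 in air and 7.68, 7.66 and 6.52 with cobalt. Its cobalt arrays were not above background, so that it was at least 2.03-fold lower (fitted difference -1.95, SE 0.32, adjusted p = 0.036).

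The remaining 17 J-domain genes spanned -0.76 to 0.93. *ERJ5* of the endoplasmic reticulum was lower in all 3 pairs (difference -0.76, adjusted p = 0.47), as were *DJP1* (-0.50), *PAM18* (-0.29) and *SWA2* (-0.27). *YDJ1*, the most general J-domain protein of the cytosol, was at 13.47, 12.86 and 13.58 in air and 13.18, 13.18 and 13.38 with cobalt, a difference of -0.06. The positive differences of *JJJ3* (0.93), *SEC63* (0.86) and *CAJ1* (0.53) came from pair 2, in which aerobic replicate 2 was low. That array was also the highest aerobic array for *APJ1*, *MDJ1* and *JID1*. Their falls were largest in pair 2 (-2.71, -2.03 and -2.39). Without aerobic replicate 2 the test called 0 genes as lower. The median of the 21 genes was -0.14, against 0.05 over all genes. At 6 h without oxygen *APJ1* and *JID1* were also below air (-1.29 and -1.64, adjusted p = 0.040 and 0.023), in a comparison with the same aerobic arrays, for which 2.15% of all genes passed. *SIS1* was at 12.14, 12.64 and 11.83 at 6 h, above all cobalt arrays (cobalt minus 6 h -1.0, SE 0.20, adjusted p = 0.031).

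**Figure D2:**
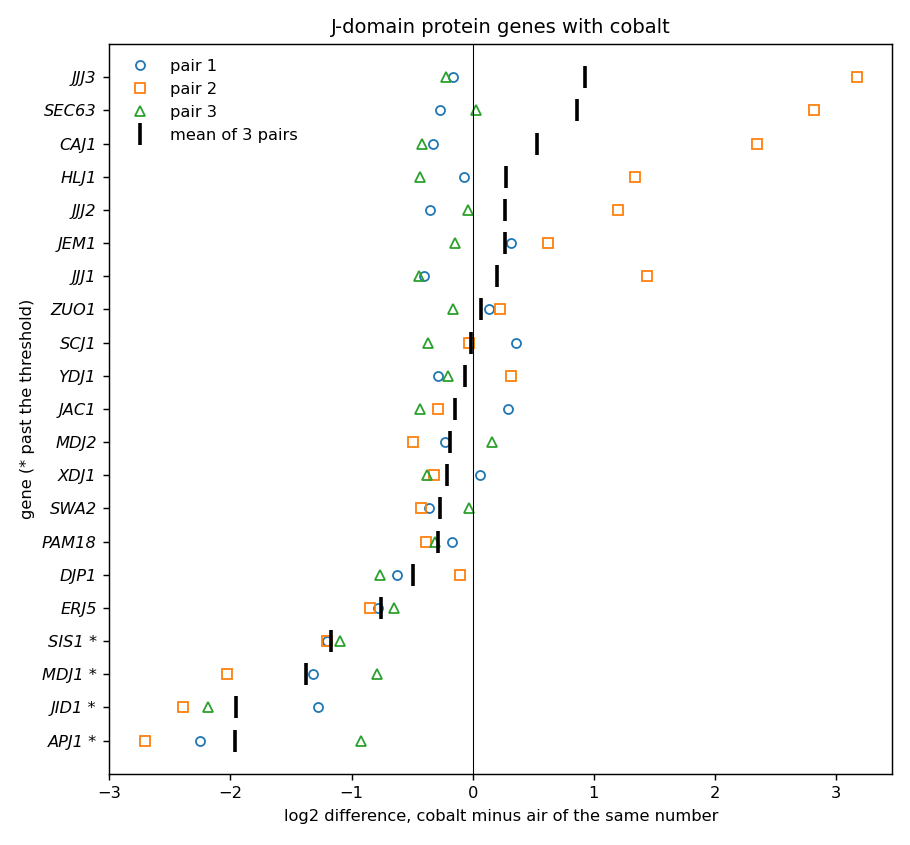
Log2 difference between cobalt and the aerobic array of the same number for each of the 21 J-domain genes, with 1 open symbol per pair and a bar for the mean. The 3 differences of SIS1 lie between -1.21 and -1.10, and the 4 genes past the threshold have all pairs below 0.

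The Hsp70 and Hsp90 genes themselves did not pass. Of 18 heat shock genes measured, *SIS1* alone passed, and the median was -0.19. In all 3 pairs 8 were lower and 0 higher, against 15.9% and 7.21% of all genes. *HSP42*, a small heat shock protein that gathers misfolded proteins into aggregates, had the lowest difference of all genes. It was at 11.67, 12.86 and 9.62 in air and 9.10, 9.20 and 8.31 with cobalt, all below each of the other 15 L51 arrays, but its aerobic arrays spanned over 3 log2 units (difference -2.51, SE 0.61, adjusted p = 0.25). The Hsp90 partner gene *STI1* was at 12.86, 13.43 and 12.63 in air and 12.16, 12.28 and 11.96 with cobalt (difference -0.84, adjusted p = 0.44). *HSP30* (-0.94), *HSP104* (-0.87) and *HSP82* (-0.56) were lower in all 3 pairs, whereas *SSA1*, *SSA2*, *SSA4* and *HSC82* lay between -0.14 and 0.10.

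The open reading frames YGR035C and YKR075C fell furthest among the genes past the threshold. YGR035C was at 12.76, 11.83 and 12.74 in air and 9.76, 9.46 and 11.14 with cobalt (difference -2.33, SE 0.37, adjusted p = 0.036), a 5.02-fold fall in which cobalt replicate 3 was the nearest to air. It was also below air at 6 h without oxygen (-2.09, adjusted p = 0.022). YKR075C was at 11.81, 12.55 and 11.68 in air and 9.42, 9.51 and 10.41 with cobalt (difference -2.23, SE 0.37, adjusted p = 0.036), and no other L51 array was below 10.65. Its paralog YOR062C was at 9.82, 10.56 and 9.95 in air and 9.20, 9.20 and 9.36 with cobalt. It did not pass (difference -0.86, SE 0.29, adjusted p = 0.47), although it too was lower in the cobalt arrays than in all 15 others.

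*DAL7* (YIR031C), a malate synthase of the allantoin pathway, by which yeast draws nitrogen from purines, was at 10.95, 10.67 and 9.89 in air and 9.52, 9.51 and 9.06 with cobalt. It fell by 1.14 (SE 0.20, adjusted p = 0.039). Of 12 genes for the use of proline and allantoin, *DAL7* alone passed. In all 3 pairs 7 were lower and 0 higher, against 15.9% and 7.21% of all genes. The median of this list was -0.579, the lowest of all 42 lists. Close to it were cytochrome bc1 (-0.567), respiratory dehydrogenases (-0.555) and Hap1-activated genes (-0.55). The medians of the proline and allantoin list were -0.63, -0.67 and -0.43 in the 3 pairs. The proline permease gene *PUT4* was at 11.87, 13.46 and 10.79 in air and 10.26, 10.38 and 8.68 with cobalt (difference -2.26, SE 0.67, adjusted p = 0.44). *DAL1*, the allantoinase gene, was at 10.45, 11.46 and 10.32 in air and 9.90, 9.68 and 9.78 with cobalt (difference -0.95, adjusted p = 0.47). The general amino acid permease gene *GAP1* differed by -0.67 without overlap.

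Of 18 hypoxic genes, *IZH4* alone passed, and the median was 0.43. In all 3 pairs 7 were higher and 1 lower, against 7.21% and 15.9% of all genes. The genes nearest to *IZH4* in this list act on lipids. *ATF2* and *ATF1* encode alcohol acetyltransferases, which make acetate esters. *ATF2* was at 9.99, 10.10 and 10.77 in air and 12.17, 11.87 and 11.04 with cobalt (difference 1.41, SE 0.32, adjusted p = 0.21). *ATF1* was at 9.55, 8.28 and 9.47 in air and 10.92, 10.45 and 10.50 with cobalt (difference 1.52, SE 0.40, adjusted p = 0.37). Neither gene overlapped between the groups. *HES1*, an oxysterol-binding protein gene, was at 8.43, 6.48 and 7.33 in air and 9.43, 8.90 and 10.12 with cobalt, and it was above background on 1 aerobic and all cobalt arrays (difference 2.07, SE 0.67, adjusted p = 0.46). *OLE1* was at 13.62, 12.77 and 13.96 in air and 14.27, 14.24 and 14.04 with cobalt, so that pair 3 differed by 0.08 (difference 0.73, SE 0.25, adjusted p = 0.47).

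The regulator nearest the threshold was *MGA2*, the activator of *OLE1*. It was at 8.82, 7.05 and 8.80 in air and 10.64, 10.45 and 9.76 with cobalt, with no overlap (difference 2.06, SE 0.37, adjusted p = 0.053). It was above background on 2 aerobic and 3 cobalt arrays, and pairs 1, 2 and 3 differed by 1.81, 3.40 and 0.97. At 6 h without oxygen it was at 10.88, 9.78 and 9.62. *UPC2*, the activator of sterol and anaerobic genes, was at 9.33, 8.93 and 9.53 in air and 10.49, 10.20 and 10.71 with cobalt (difference 1.2, SE 0.50, adjusted p = 0.47). None of the 14 heme and oxygen regulators passed, and *SPT23*, the close relative of *MGA2*, differed by -0.19. In sterol synthesis 0 of 25 genes passed, with a median of 0.12, and *HMG2*, the hypoxic form of the rate-limiting reductase, differed by 0.71 (SE 0.20, adjusted p = 0.41). In fatty acid synthesis 0 of 11 passed, and this was the only list whose median was above that of all genes in each of the 3 pairs (0.21, 0.68 and 0.04).

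Among hypoxic genes that Rox1 or heme represses, *ANB1*, *HEM13* and *AAC3* were near or within the aerobic range in cobalt replicates 1 and 2 and above it in cobalt replicate 3. *ANB1*, the hypoxic form of translation factor eIF5A, was at 9.63, 10.46 and 9.63 in air, at 9.64 and 9.49 in cobalt replicates 1 and 2, and at 12.22 in cobalt replicate 3. *HEM13*, a heme synthesis enzyme that uses oxygen, was at 12.21 and 11.81 in replicates 1 and 2 and at 13.61 in replicate 3, against 11.62 to 12.65 in air. *AAC3*, the hypoxic ADP/ATP carrier, was at 10.25, 10.29 and 11.61 with cobalt and 10.17 to 10.77 in air. *COX5B*, a hypoxic oxidase subunit, and *CYC7*, the hypoxic cytochrome c, were instead lowest in replicate 3. The study, however, counts *CYC7* among genes induced by oxygen and heme and among direct targets of Hap1. *COX5B* was at 7.89, 8.19 and 6.91 with cobalt and 7.90 to 9.03 in air, and *CYC7* at 8.34, 8.70 and 5.36 with cobalt and 7.22 to 10.35 in air. None of the 5 genes passed the test against air, and only *COX5B* passed against 6 h without oxygen (cobalt minus 6 h -3.37, adjusted p = 0.010).

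Genes of respiration that Hap1 activates set the same array apart in the other direction. *CYC1*, cytochrome c, was at 13.37, 14.03 and 13.26 in air, at 13.51 and 13.46 in cobalt replicates 1 and 2, and at 9.41 in cobalt replicate 3. In *Δhap1* cells in air it was at 9.68 to 10.06, and at 6 h without oxygen at 8.87 to 10.67. *CYT1*, cytochrome c1, was at 12.39, 11.94 and 9.37 with cobalt and 11.77 to 13.22 in air. *QCR6*, of the same complex, was at 10.96, 11.06 and 8.54 with cobalt and 10.76 to 11.40 in air. *ROX1*, the repressor gene under Hap1, was at 10.66, 10.58 and 8.61 with cobalt and 10.81, 12.61 and 11.02 in air. The 9 genes of the cytochrome bc1 complex had a median of -0.19, 0.05 and -1.55 in the 3 pairs, and the 12 Hap1-activated genes of -0.02, -0.43 and -1.30. None of either list passed. In cobalt replicate 3 *HAP1* itself was at 10.98, the highest of the 6 arrays, and *DAN1* at 9.26. On it 78.77% of genes were above background, against 93.54 and 91.43% in cobalt replicates 1 and 2, and the part of this in the pattern was not tested. Of the 8 genes past the threshold, YGR035C and *JID1* also spanned over 1 log2 unit within the cobalt group, with replicate 3 apart from the others.

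**Figure D3:**
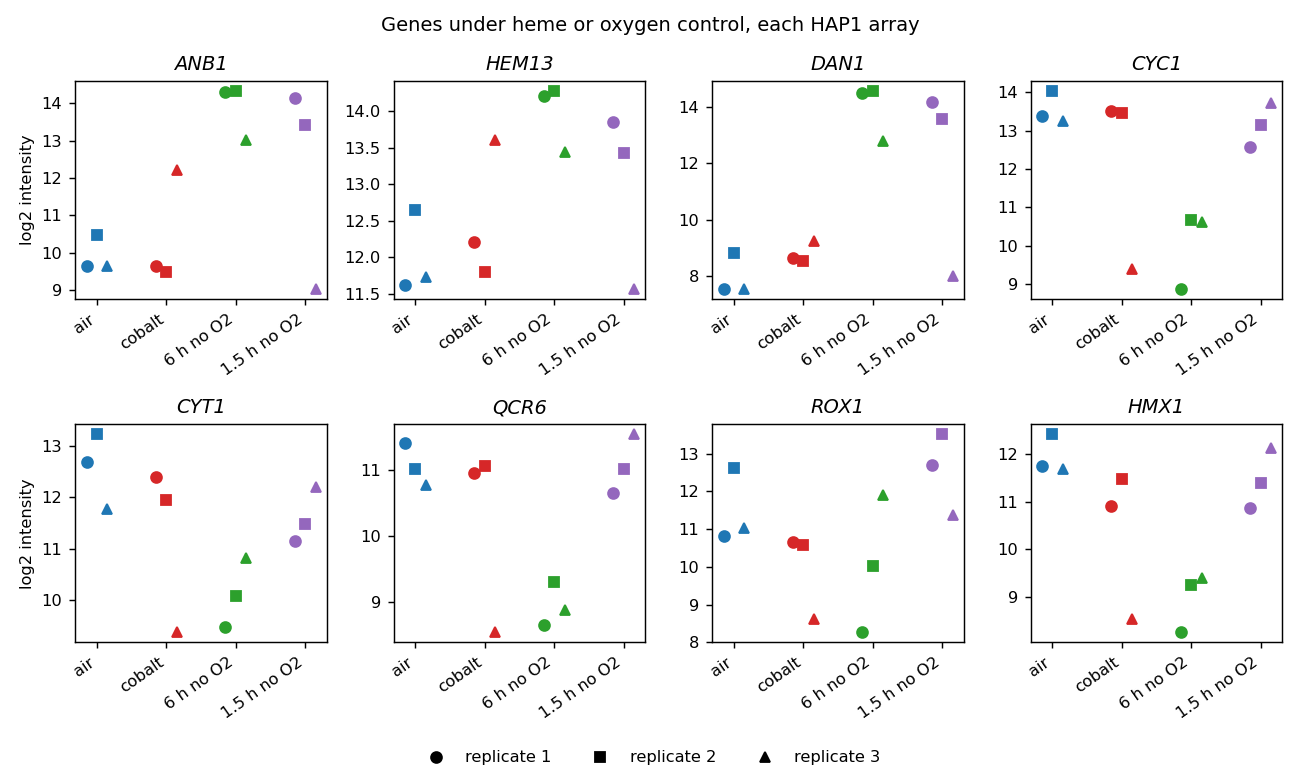
Log2 intensity of 8 genes under heme or oxygen control on each HAP1 array in air, with cobalt, and after 6 h and 1.5 h without oxygen, with symbols for the replicate numbers. In the cobalt group replicate 3 (triangle) lies above the others for ANB1 and HEM13 and below them for CYC1, CYT1, QCR6, ROX1 and HMX1.

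The cytochrome c oxidase genes differed more between pairs than between groups. The list median was -0.49, 2.49 and -1.37 in pairs 1, 2 and 3. *COX7* was at 13.02, 9.08 and 12.27 in air and 12.58, 12.93 and 10.89 with cobalt, with aerobic replicate 2 and cobalt replicate 3 lowest in their groups. None of the 8 subunits, 12 ATP synthase genes or 11 genes of the tricarboxylic acid cycle passed. Among the 10 respiratory dehydrogenases, *GUT2*, the mitochondrial glycerol-3-phosphate dehydrogenase, was nearest the threshold. It was at 10.96, 12.15 and 9.91 in air and 9.85, 9.61 and 8.46 with cobalt (difference -1.71, SE 0.32, adjusted p = 0.063).

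Anaerobic cell wall mannoproteins of the *DAN*, *TIR* and *PAU* families, which replace aerobic wall proteins when oxygen is absent, were compared across air, cobalt and 6 h without oxygen. Against air 0 of 13 passed, and the median was -0.21 (0.13, -0.92 and 0.32 in the 3 pairs). With cobalt 11 of the 13 were lower than at 6 h without oxygen at an adjusted p below 0.05, with a list median of -3.23. Aerobic arrays enter these calls only through the block and the spread, and without aerobic replicate 1 the count was 6. Without cobalt replicate 1 it was 4 and without cobalt replicate 2 it was 0. Among the hypoxic genes 4 of 18 were lower than at 6 h, with a list median of -0.90, among them *HES1* (difference -3.20, adjusted p = 0.035). Over all genes 39 were higher (0.716%) and 69 lower (1.27%) in the same comparison, and at an unadjusted p below 0.05 these were 15.2% and 9.07%. Without the replicate block 0 genes passed here, and the median of all genes was 0.15, which scaling moved to 0.02 or -0.01. *DAN1* was at 8.63, 8.53 and 9.26 with cobalt and 14.50, 14.55 and 12.77 at 6 h (difference -5.13, SE 1.0, adjusted p = 0.031). The 6 h replicate 3 array was the lowest of its group for every one of the 13 genes. *PAU4* was at 13.67, 13.41 and 10.26 at 6 h, the last within its cobalt range, and *PAU24* at 14.19, 13.87 and 10.20, against 9.28 to 9.59 with cobalt. Without that 6 h array 11 of the 13 passed and the list median was -4.21. *DAN1* was not above background in air, at 7.54, 8.82 and 7.55, and was above it on all 3 cobalt arrays. The background differed between arrays, at 8.99 on aerobic replicate 2 and at 7.84 and 8.08 on cobalt replicates 1 and 2. The aerobic value of 8.82 was thus higher than *DAN1* on those 2 cobalt arrays. *TIR2* was at 10.47, 11.01 and 11.15 with cobalt and 14.12 on average at 6 h (difference -3.24), while in air it was at 10.27 to 12.64. *PAU4* was the only member higher than air in all 3 pairs (10.40, 9.87 and 9.86 with cobalt against 8.92, 9.27 and 8.98, adjusted p = 0.47). *PAU8* and *PAU14*, outside the list, did likewise, at 1.33 and 1.16 above air (adjusted p = 0.47 for both), but sequences of *PAU* genes are so alike that a probe set may read several of them.

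**Figure D4:**
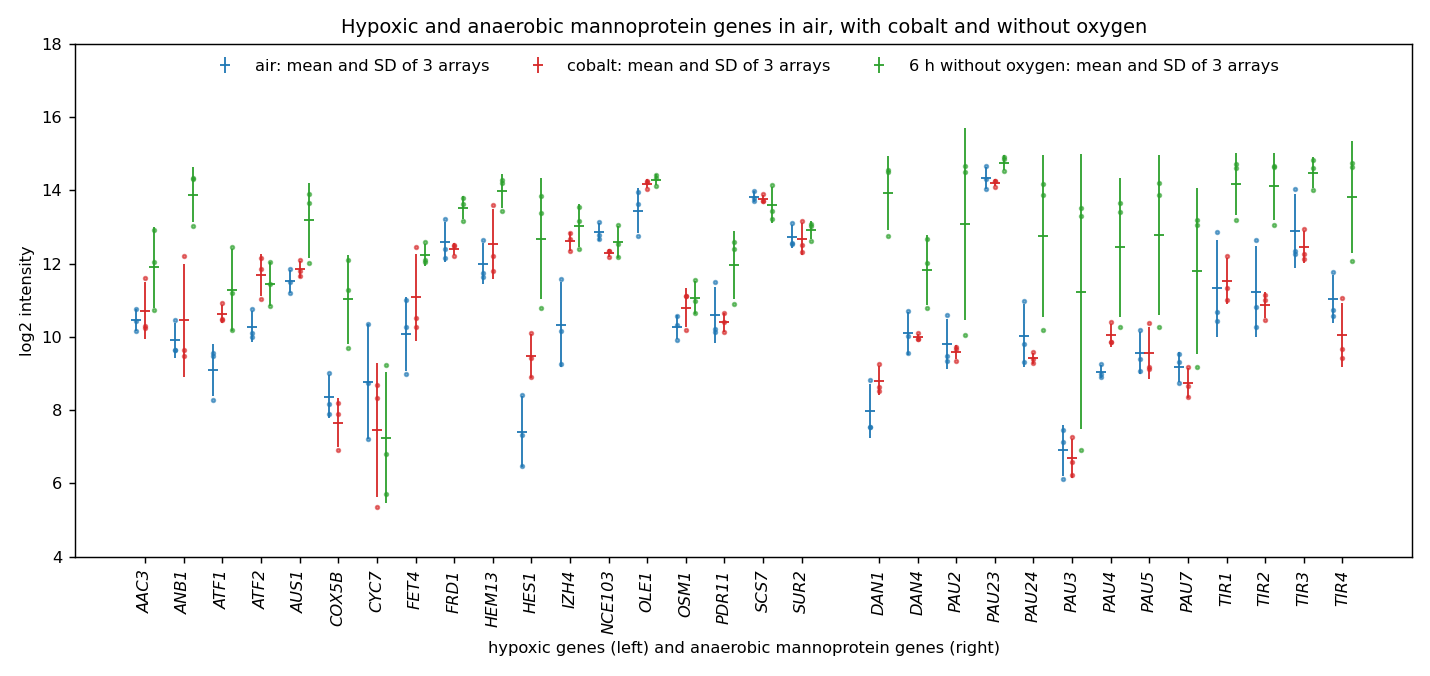
Log2 intensity of 18 hypoxic genes (left) and 13 anaerobic mannoprotein genes (right) in air (blue), with cobalt (red) and after 6 h without oxygen (green), as 3 arrays each with mean and SD. With cobalt 4 of the 18 hypoxic genes and 11 of the 13 mannoprotein genes passed the test as lower than at 6 h.

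Over all genes, the 11 mannoproteins included, 1.98% differed between cobalt and 6 h without oxygen. In the list of glycogen and trehalose genes 4 of 17 were lower than at 6 h, and in that of general stress genes 3 of 15. Genes lower with cobalt included the glycogen synthase gene *GSY1* (-2.15), the phosphorylase gene *GPH1* (-2.69), the hexokinase gene *HXK1* (-2.90) and the disaggregase gene *HSP104* (-1.66), each with an adjusted p of 0.031. The heme enzyme gene *HEM14* was lower as well (-1.26, adjusted p = 0.031). Of 34 ribosome biogenesis genes 2 were higher with cobalt than at 6 h, with a list median of 1.15, and of 16 cell cycle genes 3 were higher. Examples are the ribosome biogenesis gene *UTP14* (2.14, adjusted p = 0.031) and the mitotic cyclin gene *CLB2* (1.73, adjusted p = 0.042). *FET3*, the multicopper oxidase of iron uptake, was at 13.60, 13.99 and 13.17 with cobalt and 9.05, 10.07 and 13.08 at 6 h (2.85, adjusted p = 0.042).

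Against air, none of the 25 genes of the iron regulon passed, and the median was -0.15. In all 3 pairs 7 were lower and 0 higher, against 15.9% and 7.21% of all genes. *FET3* was at 13.75, 14.35 and 13.68 in air (cobalt minus air -0.34, SE 0.65, adjusted p = 0.83), and its partner *FTR1* differed by 0.09. The siderophore-binding wall protein genes *FIT2* and *FIT3* differed by -1.10 and -0.80 (adjusted p = 0.47 and 0.46). *HMX1*, the heme oxygenase gene, was at 11.74, 12.41 and 11.67 in air and 10.91, 11.47 and 8.53 with cobalt, with replicate 3 again the lowest (difference -1.64, SE 0.55, adjusted p = 0.47). *YAP5*, which senses high iron, was at 9.61, 9.47 and 9.14 in air and 8.84, 8.74 and 7.99 with cobalt (difference -0.89, SE 0.22, adjusted p = 0.26). The copper transporter gene *CTR1* differed by -0.90 (SE 0.25, adjusted p = 0.41), and none of the 10 copper genes or 16 iron-sulfur assembly genes passed.

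The general stress list and the glycogen and trehalose list had medians below 0 in each pair, and no member passed singly. The 20 glycolysis and fermentation genes had pair medians closer to air, at -0.02, -0.06 and -0.002. The 15 general stress genes had medians of -0.62, -0.45 and -0.53 in the 3 pairs, against -0.02, 0.35 and -0.22 over all genes. Of these 15, 8 were lower in all pairs. Over all genes 15.9% were lower and 7.21% higher in all pairs. *HXK1* was at 11.80, 11.84 and 10.34 in air and 10.28, 10.50 and 9.86 with cobalt (difference -1.11, SE 0.56, adjusted p = 0.47). The 17 glycogen and trehalose genes had a median of -0.43, and 10 were lower and 0 higher in all pairs. The 8 hexose transporter genes had pair medians of -0.05, -0.51 and -0.02, and 3 were lower and 1 higher in all pairs. *HXT7*, a high-affinity hexose transporter gene, was at 13.15, 12.85 and 12.55 in air and 11.40, 11.74 and 11.72 with cobalt, a gap wider than the spread of either group (difference -1.22, SE 0.27, adjusted p = 0.19). *GLG1*, which primes glycogen, differed by -0.74 (adjusted p = 0.44).

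Of the 42 lists, 15 had a median below that of all genes in each of the 3 pairs and 1 above it. The lists share aerobic arrays and, in part, genes. Catalase T (*CTT1*) was at 8.89, 10.77 and 7.68 in air and 8.33, 7.91 and 7.10 with cobalt (difference -1.33, adjusted p = 0.47), and none of the 14 oxidative stress genes or 14 genes of glutathione and thioredoxin defense passed. Amino acid, histidine and purine synthesis, sulfate assimilation, phosphate, proteasome, histone and cell cycle genes had 0 members past the threshold. *AGA2*, the a-agglutinin binding subunit of mating cells, was at 11.93, 12.37 and 12.13 in air and 10.49, 10.95 and 11.20 with cobalt (difference -1.26, SE 0.24, adjusted p = 0.063). The other a-specific genes differed by -0.54 to 0.54.

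**Figure D5:**
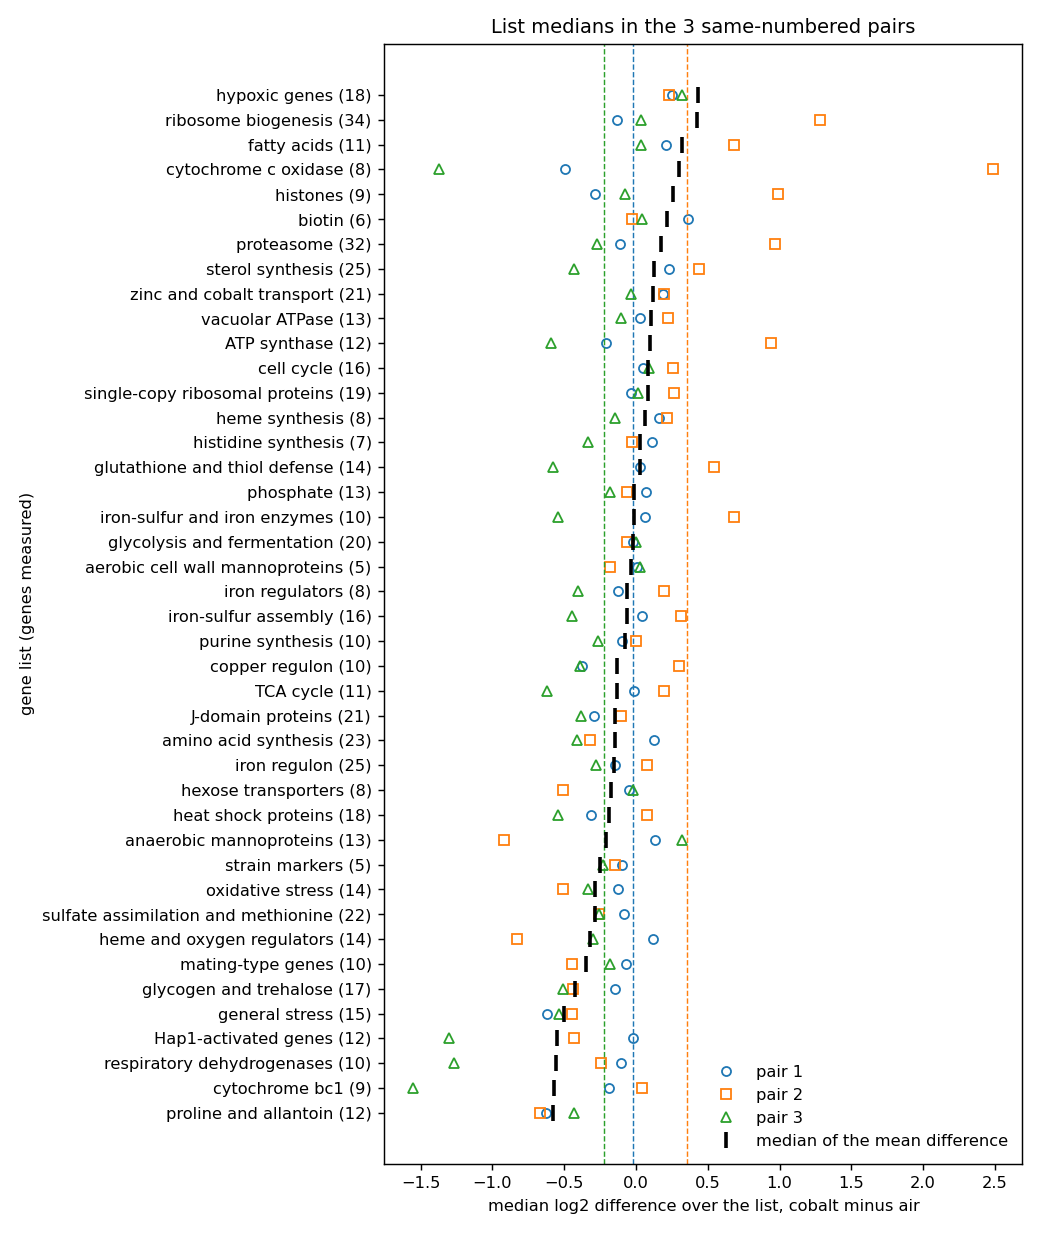
Median log2 difference between cobalt and air over each of the 42 gene lists, with 1 open symbol per same-numbered pair and a bar for the median of the mean difference, and dashed lines for the median of all genes in each pair. General stress and proline and allantoin genes lie below 0 in all pairs, whereas cytochrome c oxidase runs from -1.37 to 2.49.

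A measure that does not use the spread estimate was how often the 3 cobalt arrays lay beyond all 15 other L51 arrays. This held for 3 genes above them (0.0551%) and 19 below them (0.349%). Those above were *FUR1*, *PRS5* and *PAC1*, with differences from air of 0.23, 0.53 and 0.97. Those below included *SIS1*, YKR075C, YOR062C and *HSP42*, and 5 more are given here, chosen after their values were seen. *REG2*, a regulatory subunit of the Glc7 phosphatase, was at 9.38, 10.68 and 8.63 in air and 8.19, 8.05 and 8.13 with cobalt (difference -1.44, SE 0.32, adjusted p = 0.19). *MIG2*, a repressor in glucose repression, was at 10.72, 11.61 and 11.38 in air and 10.64, 10.34 and 10.71 with cobalt (difference -0.67). The protein kinase A gene *TPK3* differed by -0.72 and its upstream G protein gene *GPA2* by -0.75. *RTS3*, a putative phosphatase subunit gene, was at 12.33, 13.91 and 11.77 in air and 10.97, 10.52 and 11.33 with cobalt (difference -1.73, SE 0.42, adjusted p = 0.25). None of these 5 genes passed the test against air.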

How the data were processed

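L51 RNA was hybridized to Affymetrix Yeast Genome 2.0 arrays, 3 per condition, and GCOS processed the images. The authors computed linear intensity values with RMA, with background correction and quantile normalization, and deposited them per probe set. RMA gives no detection call, so background was read from the 1746 probe sets of the other yeast. Each intensity was converted to log2. Of 10928 probe sets, 5498 name 1 *S. cerevisiae* gene in a platform annotation that can be old (12 symbols updated), and the brightest stood for each of 47 genes with several.

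Limma 3.58.1 in R 4.3.3 (statmod 1.5.0) fitted condition and replicate number over 18 arrays, with Benjamini-Hochberg adjustment over 5449 genes, so that all 6 conditions share the spread. The study's fold changes set each array against the same-numbered aerobic array, though it fitted no block. Precision is limited by the number of arrays. Same-numbered arrays were hybridized on 1 day in 2 rounds. Pair 1 shared a round, and pairs 2 and 3 did not. The script was tested on simulated data.

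Named genes are those past the threshold, the 10 smallest p-values per direction among genes with 1 direction in all pairs, the 10 largest mean differences per direction among those past 1 log2 unit in all pairs, up to 4 members per list with the smallest p, and *HAP1*, *ANB1*, *CYC1*, *COT1*, *FET3* and strain markers. Other genes were chosen after their values were seen. The members and lists were chosen with earlier results of these data known.

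Alternatives were no block, the round as block, 2 groups only, quantile or cyclic loess scaling, an offset of 50, a filter on dim genes, mean probe sets, array weights, an intensity trend and left-out arrays. Another was a simplified form of the noise model that the methods describe, so its calls are not those of the study. Chosen after seeing the data were fits without the 1.5 h replicate 3 array, without that and cobalt replicate 3, without 6 h replicate 3, and with cobalt replicates 1 and 2 averaged and no block.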

Additional observations from a re-analysis of the deposited data

How the results depend on the processing

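Same-numbered arrays deviated from their group means together with a median correlation of 0.56, 0.71 and 0.25 for numbers 1, 2 and 3, and cobalt with air with 0.17, -0.07 and 0.14, so the numbers do not pair every condition. Against air, 8 genes passed. Without the replicate block 0 passed (167 at an unadjusted p below 0.05), as with the hybridization round as the block (295). With only the 2 groups compared (108), and with cobalt replicates 1 and 2 as 1 sample and no block, 0 passed as well. The smallest adjusted p was 0.21 without the block and 0.87 with only the 2 groups compared. Quantile scaling gave 3 (1 higher, 2 lower), cyclic loess 4 (1 higher, 3 lower), array weights 20, the intensity trend 5, the noise model 5 (*HSP42*, *IZH4*, *OLE1*, YGR035C and YKR075C), and leaving out the replicate 3 arrays of 1.5 h and cobalt 5. Leaving out 1 replicate number gave 0 to 4, 1 cobalt array 0 to 5 and 1 aerobic array 0 to 3, and without the 1.5 h replicate 3 array 10 passed and without the 6 h replicate 3 array 7. The offset, the filter and mean probe sets gave 8 or 9. Leaving out the block alone did not change the fitted difference of *MDJ1* (-1.38), but its SE was 0.46 instead of 0.24. The 8 calls therefore depend on the block. A call lost with fewer arrays does not by itself show a weaker effect. The 8 genes passed in 6 (*DAL7*, *MDJ1*) to 11 (*APJ1*) of 23 refits. They kept their direction in all 23, which could hardly be otherwise because their groups do not overlap.

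Between cobalt and 6 h without oxygen, 108 genes differed. Without the replicate block 0 did, with the round as the block 1, with only these groups 0, and with cobalt replicates 1 and 2 as 1 sample and no block 0. Quantile scaling gave 257 and cyclic loess 259, and both moved the median of all genes from 0.15 to 0.02 and -0.01. Array weights gave 708, leaving out 1.5 h replicate 3 gave 305, leaving out cobalt replicate 3 as well gave 281, and leaving out 6 h replicate 3 gave 280. Leaving out 1 replicate number gave 0 to 311, 1 cobalt array 1 (without replicate 2) to 123 and 1 aerobic array 40 (without replicate 1) to 471 (without replicate 2). The causes were not tested. Arrays have no counts, and levels near background limit *JID1* and *APJ1*.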
